A study of Homo sapiens with 20 samples.

Results

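Transcript levels of 9 genes of the death receptor pathway were followed in the human myeloid cell line U937T after induction of the transcription factor EVI1. The genes were the tumor necrosis factor (TNF) receptors TNFRSF1A and TNFRSF1B, the receptors TNFRSF10A, TNFRSF10B and TNFRSF10D for the ligand TRAIL, the receptor FAS, the initiator caspase CASP8, its inhibitor CFLAR (also called FLIP), and APAF1, the scaffold of the apoptosome. A probe set, the group of short probes that reports 1 transcript on the array, was taken as belonging to a gene when that gene was its only symbol in the annotation of the array. This gave 36 of the 54675 probe sets: 14 for CFLAR, 5 for FAS, 4 for TNFRSF10B, 3 each for TNFRSF10A, CASP8 and APAF1, 2 for TNFRSF10D and 1 each for TNFRSF1A and TNFRSF1B. The 2 CFLAR probe sets 217654_at and 214618_at stayed below a mean log2 intensity of 3 in at least 1 line and time point and were not tested, which left 34.

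The series comprised 20 arrays, 1 for each line, time point and culture condition. Clones E10 and E14 of U937T_EVI1-HA carry an HA-tagged human EVI1 cDNA whose expression is repressed by tetracycline (tet) and begins after tet withdrawal. They were washed, placed in medium with or without tet, and sampled at 6, 12, 24 and 48 h. The control lines, sampled with and without tet after 48 h only, were P2, a clone of U937T_vec carrying the empty vector, and parental U937T. All cells grew in puromycin and, except for U937T, in hygromycin. With 1 culture of each line per condition, the replicates are lines, E10 and E14 for EVI1 induction and the control lines for tet withdrawal alone (n = 2 lines per group). Errors and p-values of a change rest on 1 residual spread pooled over all 20 arrays, with a constant difference between lines removed. They describe how the difference between the lines of a group varied over time points and conditions. They do not measure the spread between the 2 lines of 1 contrast. Each line is 1 clone or 1 parental culture. Levels are log2 intensities, which compare 1 probe set between arrays but not different probe sets with each other. Without minus with tet is called the change, and the change of the EVI1 clones minus that of the control lines at 48 h the EVI1-specific change. A probe set was called when its limma p, adjusted over 35610 probe sets by the method of Benjamini and Hochberg, was under 0.05.

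The probe set 221884_at of MECOM, the gene that encodes EVI1, lay at 7.06 to 7.34 with tet in E10 and E14 and rose after tet withdrawal by 1.38 to 3.38 in E10 and by 1.55 to 2.86 in E14, against a change of -0.99 in P2 and 0.05 in U937T. The other 4 MECOM probe sets had means of 2.59 to 3.38; of these only 208434_at passed the filter, with a change of -0.04 at 48 h in the EVI1 clones that was not called. Of 10 monocytic and myeloid markers on the array, 8 had a median of at least 6, LYZ and ITGB2 among them, while MPO (median 4.97) and FCGR1A (median 3.52) were low. Of 7 T cell, 5 B cell, 4 erythroid, 5 epithelial and 5 fibroblast markers, 1, 1, 1, 0 and 1 reached that level. The difference between 3′ and 5′ control probe sets of actin and GAPDH, a measure of RNA integrity, ranged from 0.187 to 1.52 and was not even over the arrays: 0.187 in E10 with tet at 6 h, 1.02 with and 0.460 without tet in E14 at 12 h, and 1.52 and 1.40 in E14 at 24 h. The fit was repeated with a term for this difference.

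Death receptors are surface proteins of the TNF receptor superfamily whose cytoplasmic death domain recruits the adaptor FADD and pro-caspase 8 after ligand binding. CASP8 then activates executioner caspases, and FLIP, which resembles CASP8 but lacks its full protease activity, competes with it for the adaptor. APAF1 acts on the mitochondrial branch, where it binds cytochrome c and activates caspase 9. TNFRSF1A, TNFRSF10A, TNFRSF10B and FAS carry a death domain, TNFRSF1B has none, and TNFRSF10D holds a truncated one and binds TRAIL as a decoy.

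After 48 h without tet, 6 of the 9 genes rose in the EVI1 clones: TNFRSF1B, TNFRSF10B, TNFRSF10D, CASP8, CFLAR and APAF1. TNFRSF1A, TNFRSF10A and FAS had no called probe set. By limma, 19 of the 34 probe sets were called higher (55.9%) and 0 lower, against 13.0% of all tested probe sets called higher and 11.5% called lower. The median change was 0.63 over the 34 probe sets and -0.03 over all tested ones. The 19 calls comprised 11 of 12 tested CFLAR probe sets, 3 of 3 for APAF1, 2 of 3 for CASP8, 1 of 4 for TNFRSF10B, 1 of 2 for TNFRSF10D and the single one of TNFRSF1B, so that most came from CFLAR. Probe sets of 1 gene share transcripts and are not independent. Those with names in x_at, most of the called CFLAR ones and APAF1 211553_x_at among them, have probes that may match other transcripts. The count fell to 9 without E10 and to 11 without E14, and 5 of the calls were at least 2-fold. These are cultures of a single cell line, and more cells that hold a transcript cannot be told apart from more of it per cell.

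The rise was confined neither to E10 and E14 nor, within the receptors, to those with a death domain. In the control lines, 4 probe sets of 4 genes were called higher (11.8%) and 0 lower, against 3.31% of all tested probe sets called higher and 2.61% called lower: CASP8 213373_s_at (0.64), CFLAR 235427_at (0.76), TNFRSF1B 203508_at (0.62) and APAF1 211553_x_at (0.71). This count was 0 without P2 and 1 without U937T, E10 or E14. The EVI1-specific change was called for 3 probe sets, all higher, CFLAR 235427_at (0.96), TNFRSF10D 227345_at (0.97) and TNFRSF10B 209295_at (0.69), or 8.82% of the 34 against 1.38% of all tested (1.57% were called lower). Without the line as a block it was called for 1, TNFRSF10D 227345_at. At 48 h the change in E10 and in E14 lay above that in both control lines for 21 of the 34 probe sets (61.8%, in 8 genes), against 21.5% of all tested, and below it for 1 (2.94%), against 22.3%. Of the 21, 11 were of CFLAR. TNFRSF10A had the 1 below and also 1 above, 231775_at, by a narrow margin (0.0819 in E14 against 0.081 in U937T).

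**Figure D1:**
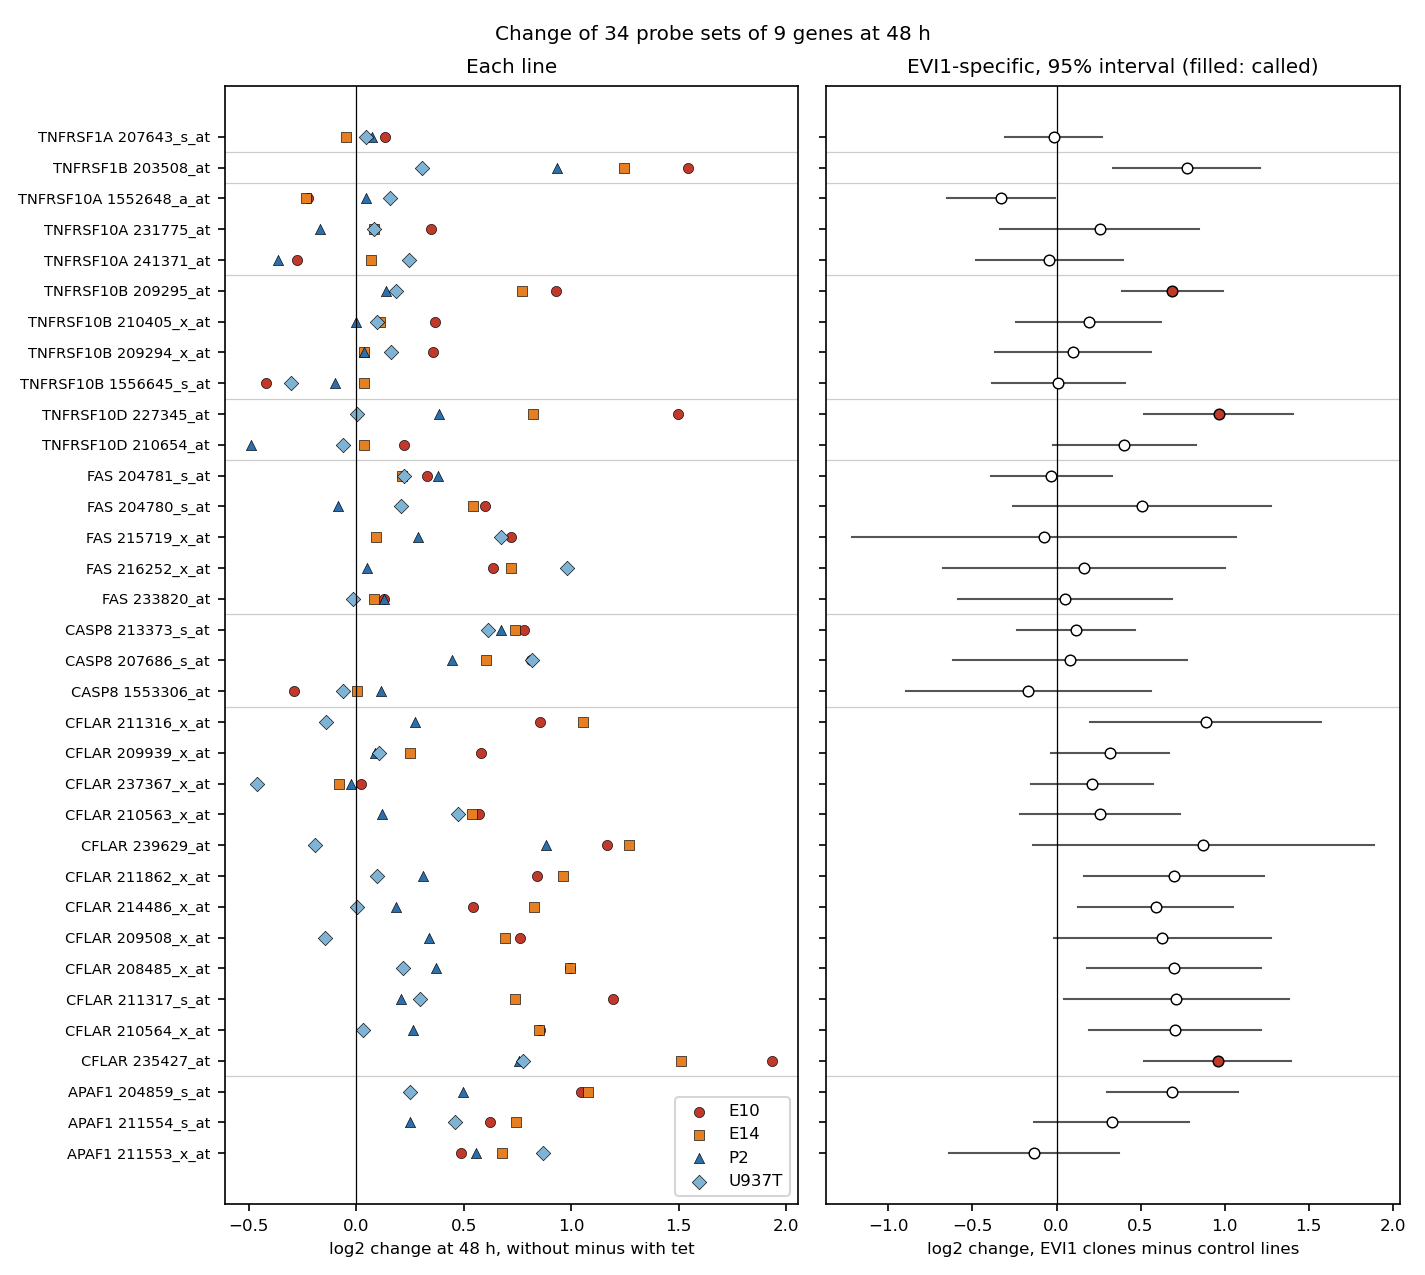
Change at 48 h of the 34 tested probe sets, grouped by gene, as log2 without minus with tet. The left panel shows each line as 1 point (1 array with and 1 without tet) and the right panel the EVI1-specific change with its 95% interval, filled where called; CFLAR, TNFRSF10D and TNFRSF10B have 1 filled point each, and the intervals of TNFRSF1A and CASP8 cover 0.

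The promoters of 3 genes that rose at 48 h and of TNFRSF1A, whose change was 0.04, are shown to set their sequences beside the arrays. Each is the 250 bases before the start of a RefSeq transcript in GRCh38.p14, written 5′ to 3′ on the gene's strand, and capitals mark matches to any of 9 motifs searched on both strands. Gene positions are given in the same build. TNFRSF1B starts after chr1:12166741-12166990 (plus strand), CASP8 after chr2:201233213-201233462 (plus strand), APAF1 after chr12:98645040-98645289 (plus strand) and TNFRSF1A before chr12:6342077-6342326 (minus strand).
TNFRSF1B: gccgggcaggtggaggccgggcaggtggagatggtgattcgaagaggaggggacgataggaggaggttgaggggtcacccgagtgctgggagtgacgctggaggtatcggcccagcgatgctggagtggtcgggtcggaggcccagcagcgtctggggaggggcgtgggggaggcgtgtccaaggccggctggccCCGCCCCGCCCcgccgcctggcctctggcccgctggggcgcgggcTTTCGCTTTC
CASP8: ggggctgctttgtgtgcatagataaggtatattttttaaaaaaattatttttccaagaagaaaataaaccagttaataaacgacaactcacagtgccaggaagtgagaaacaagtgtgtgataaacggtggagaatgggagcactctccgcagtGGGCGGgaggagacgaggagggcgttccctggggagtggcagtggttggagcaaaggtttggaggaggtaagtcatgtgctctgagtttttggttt
APAF1: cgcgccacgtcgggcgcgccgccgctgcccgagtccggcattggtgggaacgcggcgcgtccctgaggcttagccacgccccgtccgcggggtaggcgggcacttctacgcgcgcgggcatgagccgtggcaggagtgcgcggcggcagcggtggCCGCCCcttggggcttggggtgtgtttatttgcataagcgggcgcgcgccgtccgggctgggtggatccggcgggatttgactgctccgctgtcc
TNFRSF1A: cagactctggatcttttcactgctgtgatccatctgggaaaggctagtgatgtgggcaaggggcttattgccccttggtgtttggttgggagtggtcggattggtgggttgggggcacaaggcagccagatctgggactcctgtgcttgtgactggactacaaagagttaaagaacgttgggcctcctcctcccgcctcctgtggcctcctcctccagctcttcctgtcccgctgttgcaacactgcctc

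The printed windows of CASP8, APAF1 and TNFRSF1B hold a GC box (GGGCGG on either strand, the motif of SP1), at -96 to -91 in CASP8, -95 to -90 in APAF1 and, as a pair of overlapping matches from -55 to -45, in TNFRSF1B; 42.6% of 35116 promoters of the same length hold one. Counted over every window of a gene, the box is in 1 of 3 for CASP8 and 2 of 4 for CFLAR, which rose. It is also in the 1 window each of APAF1 and TNFRSF1B, which rose. For FAS, which was not called, it is in 3 of 3, and for TNFRSF1A in 0 of 1. Whether the box goes with the rise was not tested. TNFRSF1B also holds GAAA, any 2 letters and GAAA again, a form of the interferon response element, on the minus strand at -10 to -1, which 3.02% of promoters hold. None of the 4 windows holds GACAAGATA or GAAGATGAG, motifs of the first and second zinc finger domains of EVI1 (0.0854% and 0.265% of promoters), GGG, any 2 letters and TTTCC of NF-kB (1.73%), CACGTG of MYC (6.34%), TTTGGCGC of E2F (0.550%), GAGGAA of PU.1 (23.6%) or CCGGAA of ETS factors (14.5%). A match is a description of these letters, and its absence says nothing of binding elsewhere.

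Among the TNF receptors, TNFRSF1B rose and TNFRSF1A did not. TNFRSF1B (203508_at; chr1:12166991-12209220), the receptor without a death domain, lay with tet at 48 h at 8.10 in E10 and 8.34 in E14 and without tet at 9.65 and 9.59. In P2 it lay at 8.20 with and 9.14 without tet, and in U937T at 8.55 and 8.86. Both clones without tet were thus above every other array, and both control lines were higher without than with tet. The change was 1.40 (SE 0.14, 2.63-fold, adjusted p = 1.03e-05 by limma) in the EVI1 clones and 0.62 (SE 0.14, 1.54-fold, adjusted p = 0.023) in the control lines. The EVI1-specific change of 0.77 (SE 0.20, 95% interval 0.34 to 1.21, adjusted p = 0.062 by limma) did not pass. The 2 control lines differed, with 0.93 in P2 and 0.31 in U937T; without P2 the EVI1-specific change was 1.09 and was called (adjusted p = 0.025 by limma), and without U937T it was 0.46 (adjusted p = 0.40).

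TNFRSF1B rose late. With tet it lay at 7.42, 7.72 and 8.08 in E10 and at 7.59, 8.10 and 8.18 in E14 at 6, 12 and 24 h. Without tet it lay at 7.48, 7.66 and 8.11 in E10 and at 7.66, 7.61 and 8.33 in E14. At 6 and 24 h the arrays with and without tet overlapped, at 12 h both without tet lay below both with tet, and in each clone and condition the level at 24 h was above that at 6 h. With tet alone the level at 48 h was 0.72 higher than at 6 h (SE 0.14, adjusted p = 0.014 by limma), while the 3′ to 5′ difference was 0.187 and 0.450 at 6 h and 0.656 and 0.745 at 48 h; in the fit that adjusted for that difference the rise with tet was not called. The change at 48 h exceeded that at 24 h by 1.31 (SE 0.20, adjusted p = 0.0065 by limma).

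TNFRSF1A (207643_s_at; chr12:6328771-6342076), the receptor through which TNF signals to both survival and death, ranged from 10.30 to 10.63 over all 20 arrays. At 48 h it lay at 10.41 and 10.46 with and at 10.55 and 10.42 without tet in E10 and E14, and at 10.46 and 10.39 with and at 10.53 and 10.44 without tet in P2 and U937T. The groups overlap. The change of the EVI1 clones was 0.04 (95% interval -0.16 to 0.25) and the EVI1-specific change -0.02 (95% interval -0.30 to 0.27), neither called. At 24 h it was lower without tet in both clones, by 0.22 and 0.30, which did not pass (adjusted p = 0.10 by limma).

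**Figure D2:**
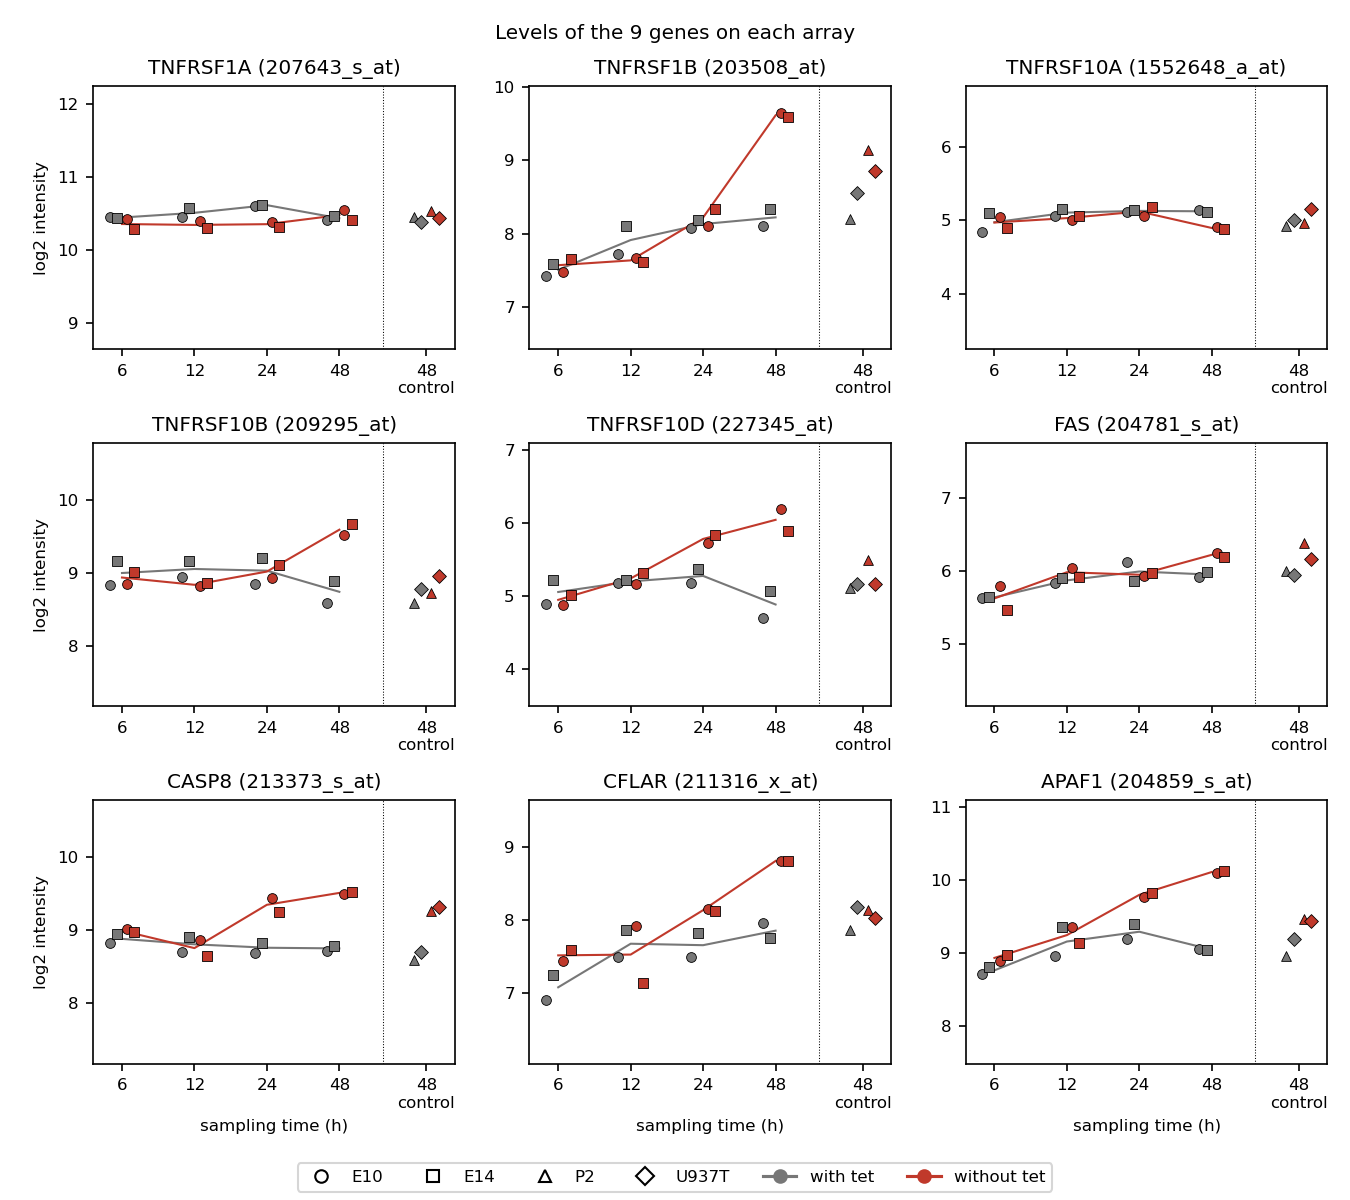
Level (log2 intensity) of each gene's probe set with the highest mean on each of the 20 arrays, against the sampling time in h; lines join the means of E10 and E14, and the control lines stand right of the dotted line at 48 h. Every panel spans the same number of log2 units. In E10 and E14 at 48 h, TNFRSF1B, TNFRSF10B, TNFRSF10D, FAS, CASP8, CFLAR and APAF1 lie higher without than with tet. TNFRSF10A lies lower without tet, and TNFRSF1A overlaps. FAS and TNFRSF10A were not called.

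The genes of the 3 TRAIL receptors lie together on chromosome 8, and their changes were not alike in size. TNFRSF10B (209295_at), which encodes the death receptor DR5, lay with tet at 48 h at 8.59 in E10 and 8.90 in E14 and without tet at 9.52 and 9.67. In P2 it lay at 8.59 with and 8.73 without tet, and in U937T at 8.78 and 8.97. The 2 arrays of EVI1 clones without tet at 48 h were the highest of all 20, and the control lines moved little. The change was 0.85 (SE 0.098, 1.80-fold, adjusted p = 2.96e-05 by limma) in the EVI1 clones, 0.16 (adjusted p = 0.43) in the control lines, and the EVI1-specific change 0.69 (SE 0.14, 1.61-fold, 95% interval 0.39 to 0.99, adjusted p = 0.018).

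TNFRSF10B had no called change before 48 h. With tet it lay at 8.84, 8.94 and 8.85 in E10 and at 9.16, 9.17 and 9.21 in E14 at 6, 12 and 24 h, and without tet at 8.86, 8.82 and 8.94 in E10 and at 9.02, 8.86 and 9.10 in E14. Each array without tet was within 0.31 of its partner, and at 48 h the change was larger than at 24 h by 0.86 (SE 0.14, adjusted p = 0.0080 by limma). With tet the level was 0.26 lower at 48 h than at 6 h (SE 0.098, adjusted p = 0.14, not called). The other 3 TNFRSF10B probe sets were not called in any contrast: 210405_x_at and 209294_x_at, whose probes may match other transcripts, had changes at 48 h of 0.24 and 0.20, and 1556645_s_at, with a mean of 3.21 close to the intensity minimum, had -0.19. All 3 were thus smaller than the change of 209295_at.

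TNFRSF10D (227345_at), the decoy receptor DcR2, lay with tet at 48 h at 4.70 in E10 and 5.07 in E14 and without tet at 6.20 and 5.89. In P2 it lay at 5.12 with and 5.50 without tet, and in U937T at 5.17 on both arrays. E10 showed the larger change, 1.49 against 0.82 in E14, and U937T none (0.00). The change was 1.16 (SE 0.14, 2.23-fold, adjusted p = 5.87e-05 by limma) in the EVI1 clones and 0.19 (adjusted p = 0.54) in the control lines, and the EVI1-specific change 0.97 (SE 0.20, 1.95-fold, 95% interval 0.52 to 1.41, adjusted p = 0.024). In the EVI1 clones the change was already called at 24 h (0.51, SE 0.14, adjusted p = 0.039 by limma). The level then was 5.73 in E10 and 5.83 in E14 without against 5.18 and 5.38 with tet. No control line was sampled at 24 h. At 6 and 12 h the levels were 4.90 and 5.18 with and 4.88 and 5.16 without tet in E10, and 5.22 and 5.23 with and 5.02 and 5.32 without tet in E14, which overlap. The change at 48 h was not called against that at 24 h. Between these times the mean of the clones went from 5.28 to 4.89 with tet and from 5.78 to 6.04 without. The other probe set, 210654_at (mean 3.59), had changes of 0.22 in E10, 0.03 in E14, -0.49 in P2 and -0.06 in U937T, none called.

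TNFRSF10A, which encodes the death receptor DR4, was not called in any contrast. Its probe set with the highest mean, 1552648_a_at, lay with tet at 48 h at 5.14 in E10 and 5.11 in E14 and without tet at 4.92 and 4.88, and in P2 at 4.92 and 4.97 and in U937T at 5.00 and 5.16. It was the 1 probe set of the 34 whose change in both clones, -0.22 and -0.23, lay below that in both control lines, 0.05 and 0.16. The change of -0.23 (SE 0.10, adjusted p = 0.14 by limma) and the EVI1-specific change of -0.33 (SE 0.15, 95% interval -0.65 to -0.01, adjusted p = 0.33) did not pass. The other 2 probe sets, 231775_at and 241371_at, had changes of 0.21 and -0.10 in the clones. In the EVI1 clones at 48 h, 1 of 4 TNFRSF10B and 1 of 2 TNFRSF10D probe sets were thus called higher. For TNFRSF10A it was 0 of 3, and over all tested probe sets 13.0%. Whether these receptors for TRAIL differ from each other was not tested.

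FAS (chr10:88964050-89017059), the receptor for FAS ligand, was not called in any contrast. Its probe set with the highest mean, 204781_s_at, lay with tet at 48 h at 5.91 in E10 and 5.98 in E14 and without tet at 6.24 and 6.19, and in P2 at 6.00 and 6.38 and in U937T at 5.93 and 6.16. Every line was higher without tet at 48 h, by 0.33, 0.21, 0.38 and 0.22 in E10, E14, P2 and U937T. The change was 0.27 (SE 0.12, adjusted p = 0.12 by limma) in the EVI1 clones and 0.30 (SE 0.12, adjusted p = 0.17) in the control lines, and the EVI1-specific change -0.03 (95% interval -0.39 to 0.33), whose sign turned to 0.03 without E14 and 0.049 without P2. The change of the other 4 probe sets ranged from 0.11 to 0.68 in the EVI1 clones at 48 h, and 1 of the 5, 204780_s_at (0.60 and 0.54 against -0.08 and 0.21), lay above both control lines in both clones.

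CASP8 (chr2:201233463-201287711) rose after tet withdrawal both in the EVI1 clones and in the control lines. 213373_s_at lay with tet at 48 h at 8.71 in E10 and 8.78 in E14 and without tet at 9.49 and 9.52, in P2 at 8.58 with and 9.25 without tet, and in U937T at 8.70 and 9.31. In every line the array without tet was the higher, by 0.78, 0.74, 0.67 and 0.61 in E10, E14, P2 and U937T. The change was 0.76 (SE 0.12, 1.69-fold, adjusted p = 0.000285 by limma) in the EVI1 clones and 0.64 (SE 0.12, 1.56-fold, adjusted p = 0.0062) in the control lines. The EVI1-specific change was 0.12 (95% interval -0.24 to 0.47, adjusted p = 0.83 by limma), an interval that leaves room for a difference of up to 0.47 in favor of the EVI1 clones.

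CASP8 had risen by 24 h in the EVI1 clones, and no control line was sampled then. 213373_s_at lay at 8.69 and 8.82 with and at 9.44 and 9.24 without tet in E10 and E14 at 24 h (0.59, SE 0.12, 1.50-fold, adjusted p = 0.0047 by limma), while at 6 h it lay at 8.81 and 8.93 with and at 9.01 and 8.96 without tet, and at 12 h at 8.70 and 8.90 with and at 8.86 and 8.63 without tet. At 24 h the arrays of E10 and E14 without tet were higher than those with tet, and at 12 h they overlapped. The second probe set, 207686_s_at, rose by 0.71 (adjusted p = 0.037 by limma) in the EVI1 clones at 48 h and by 0.63 (adjusted p = 0.14, not called) in the control lines. The third, 1553306_at (mean 4.01), had -0.14 and 0.03.

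CFLAR (chr2:201116164-201176687), which lies on the same chromosome as CASP8, changed across most of its probe sets. Of these, 11 of 12 tested probe sets were called higher in the EVI1 clones at 48 h, with changes from 0.41 to 1.72, and 237367_x_at, at 7.01 to 7.73 on every array, had -0.03. The called probe set with the highest mean, 211316_x_at, lay with tet at 48 h at 7.95 in E10 and 7.75 in E14 and at 8.81 without tet in both, in P2 at 7.86 with and 8.14 without tet, and in U937T at 8.17 and 8.03. Both clones without tet were above all other arrays. The change was 0.95 (SE 0.22, 1.94-fold, adjusted p = 0.0067 by limma) and the EVI1-specific change 0.89 (SE 0.32, 95% interval 0.20 to 1.57, adjusted p = 0.19, not called). In the control lines, 1 of 12 CFLAR probe sets was called. Over all 14 CFLAR probe sets, the untested ones included, the median change at 48 h was 0.27 in P2 and 0.03 in U937T. It was 0.80 in E10 and 0.78 in E14.

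The largest change among the 34 probe sets was that of CFLAR 235427_at. It lay with tet at 48 h at 5.44 in E10 and 5.81 in E14 and without tet at 7.38 and 7.32, in P2 at 5.54 with and 6.30 without tet, and in U937T at 5.58 and 6.35. All 4 lines rose, the clones by 1.93 and 1.51 and the control lines by 0.76 and 0.77. The change was 1.72 (SE 0.14, 3.30-fold, adjusted p = 1.9e-06 by limma) in the EVI1 clones and 0.76 (SE 0.14, 1.70-fold, adjusted p = 0.0077) in the control lines, and the EVI1-specific change 0.96 (SE 0.20, 1.94-fold, 95% interval 0.52 to 1.39, adjusted p = 0.022).

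The change of CFLAR 235427_at grew between 24 and 48 h, on both sides of the comparison. The mean of E10 and E14 with tet went down from 6.17 to 5.62, and without tet up from 6.54 to 7.35. At 24 h it lay at 6.11 with and 6.54 without tet in E10 and at 6.24 and 6.55 in E14, a change of 0.37 that was not called (adjusted p = 0.13 by limma), and the change at 48 h exceeded it by 1.36 (SE 0.20, adjusted p = 0.0052). Another 6 CFLAR probe sets were called at 24 h, with changes from 0.52 to 0.82, and none of these exceeded its 24 h change at 48 h by a called amount. E14 at 12 h stood apart, with changes of -0.72 for 211316_x_at and -0.75 for 239629_at against 0.42 and 0.30 in E10; there the 3′ to 5′ difference was 1.02 with and 0.460 without tet. CFLAR 239629_at rose with time in tet alone by 1.56 (SE 0.33, adjusted p = 0.019 by limma) and 214486_x_at by 0.64 (adjusted p = 0.028). In the fit adjusted for the 3′ to 5′ difference neither rise with tet was called, whereas at 48 h 20 of the 34 probe sets were called in the EVI1 clones.

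**Figure D3:**
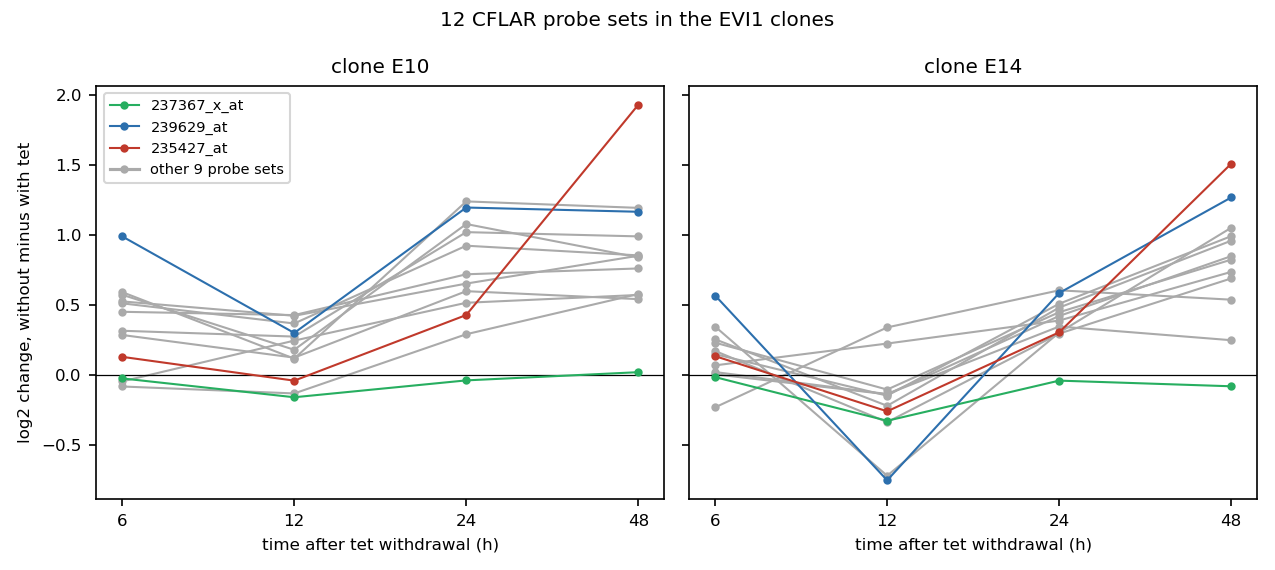
Change (log2 without minus with tet) of the 12 tested CFLAR probe sets by time point in the clones E10 and E14, with 1 line per probe set and 1 pair of arrays per point. 235427_at (red) ends highest, 239629_at (blue) drops to -0.75 in E14 at 12 h, 237367_x_at (green) stays near 0, and the other 9 lie above 0 at 24 and 48 h in both clones.

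APAF1 (chr12:98645290-98735433) rose in the EVI1 clones with all 3 of its probe sets. 204859_s_at lay with tet at 48 h at 9.05 in E10 and 9.05 in E14 and without tet at 10.10 and 10.13, in P2 at 8.97 with and 9.47 without tet, and in U937T at 9.19 and 9.44. The clones without tet were above every other array, and each control line was higher without tet. The change was 1.06 (SE 0.13, 2.09-fold, adjusted p = 4.2e-05 by limma) in the EVI1 clones and 0.37 (SE 0.13, adjusted p = 0.12, not called) in the control lines. The EVI1-specific change of 0.69 (SE 0.18, 95% interval 0.30 to 1.08, adjusted p = 0.064 by limma) did not pass, but was called when adjusted for the 3′ to 5′ difference (0.64, adjusted p = 0.036).

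The APAF1 probe sets did not all show the same contrast with the control lines. 211553_x_at lay at 3.92 and 4.01 with and at 4.41 and 4.69 without tet in E10 and E14, and at 4.04 and 3.67 with and at 4.60 and 4.54 without tet in P2 and U937T. Its change was 0.58 (adjusted p = 0.020 by limma) in the EVI1 clones and 0.71 (adjusted p = 0.024) in the control lines, with an EVI1-specific change of -0.13 (95% interval -0.64 to 0.37). 211554_s_at had changes of 0.68 and 0.36 and an EVI1-specific change of 0.33 (adjusted p = 0.55 by limma). At 24 h, 204859_s_at had risen from 9.20 to 9.77 in E10 and from 9.40 to 9.83 in E14 (0.50, adjusted p = 0.021 by limma). At 12 h it lay at 8.96 with and 9.36 without tet in E10 and at 9.36 and 9.14 in E14, so that the 2 clones differed in direction, and at 6 h at 8.72 and 8.82 with and 8.90 and 8.98 without tet.

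In time, the called rises after tet withdrawal in the EVI1 clones fell on 24 and 48 h, in 6 of the 9 genes. The control lines were sampled at 48 h only, so the earlier changes include any effect of tet withdrawal itself. At 6 h, 0 of 34 probe sets were called by limma (3 at an unadjusted p under 0.05), against 0% of all tested, and at 12 h 0 (1 unadjusted), against 0.0225%. Of the 14 CFLAR probe sets, the untested ones included, 11 had a change above 0 at 6 h in E10 (median 0.36) and 11 in E14 (median 0.12). At 12 h, 9 did in E10 and 2 in E14. Over all tested probe sets, the change of the EVI1 clones was above 0 for 46.4% at 6 h and 49.6% at 12 h. The CFLAR probe sets share transcripts, so their counts are not of independent observations. At 24 h, 9 were called higher and 0 lower (26.5%; of all tested, 5.39% were called higher and 6.34% lower), in APAF1, CASP8, CFLAR and TNFRSF10D, with a median change of 0.26 against 0.01 over all tested. The 24 h count was 0 without E10, 3 without E14 and 4 without the E14 arrays at 12 and 24 h, which include the pair with the highest 3′ to 5′ differences; it was 5 without the line as a block. At 48 h the change was larger than at 24 h for 3 probe sets (of all tested, 1.01% were called larger and 0.621% smaller), CFLAR 235427_at, TNFRSF10B 209295_at and TNFRSF1B 203508_at, a count that was 0 without E10, without E14 and without the E14 arrays at 12 and 24 h.

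The comparison of clones and control lines in the presence of tet asks how far they differed without induction. At 48 h with tet, 0 of 34 probe sets were called by limma between E10 and E14 and the control lines (0 at an unadjusted p under 0.05; 0.00842% of all tested were called), with differences of -0.46 to 0.42. With tet alone, 3 probe sets were called higher at 48 h than at 6 h (of all tested, 2.80% were called higher and 3.39% lower), CFLAR 214486_x_at and 239629_at and TNFRSF1B 203508_at, a count that was 0 without E10 and 0 when adjusted for the 3′ to 5′ difference.

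In the order of group means, the EVI1 clones without tet at 48 h came last for TNFRSF1B, TNFRSF10B, TNFRSF10D, CASP8 213373_s_at, CFLAR 211316_x_at and 235427_at and APAF1 204859_s_at, with both arrays above those of the group next in order. For TNFRSF10B the other 9 groups overlapped with their neighbors. For TNFRSF1B, the control lines without tet came next and stood apart from those with tet, while for TNFRSF10D, CFLAR 235427_at and APAF1 204859_s_at the EVI1 clones without tet at 24 h came next, also apart. For TNFRSF1A, no group but the clones with tet at 24 h stood apart from its neighbor.

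Leaving out 1 line ended the EVI1-specific calls with 1 exception. The change stayed between 0.75 and 1.17 for CFLAR 235427_at, 0.61 and 0.77 for TNFRSF10B 209295_at and 0.63 and 1.30 for TNFRSF10D 227345_at. Without E10 the adjusted p by limma was 0.46 for CFLAR 235427_at, 0.62 for TNFRSF10B 209295_at and 0.64 for TNFRSF10D 227345_at, without E14 it was 0.16, 0.49 and 0.15, and without U937T 0.12, 0.093 and 0.20. Without P2 it was 0.097 and 0.089 for CFLAR and TNFRSF10B, while TNFRSF10D was called (1.16, adjusted p = 0.041). Each such fit leaves 1 line in a group, which is assumed to vary like the others. Adjusted for the 3′ to 5′ difference, all 3 were called, and APAF1 204859_s_at with them. E10 and E14 supply most of the 8 residual degrees of freedom, so these p-values carry little of the difference between P2 and U937T.

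**Figure D4:**
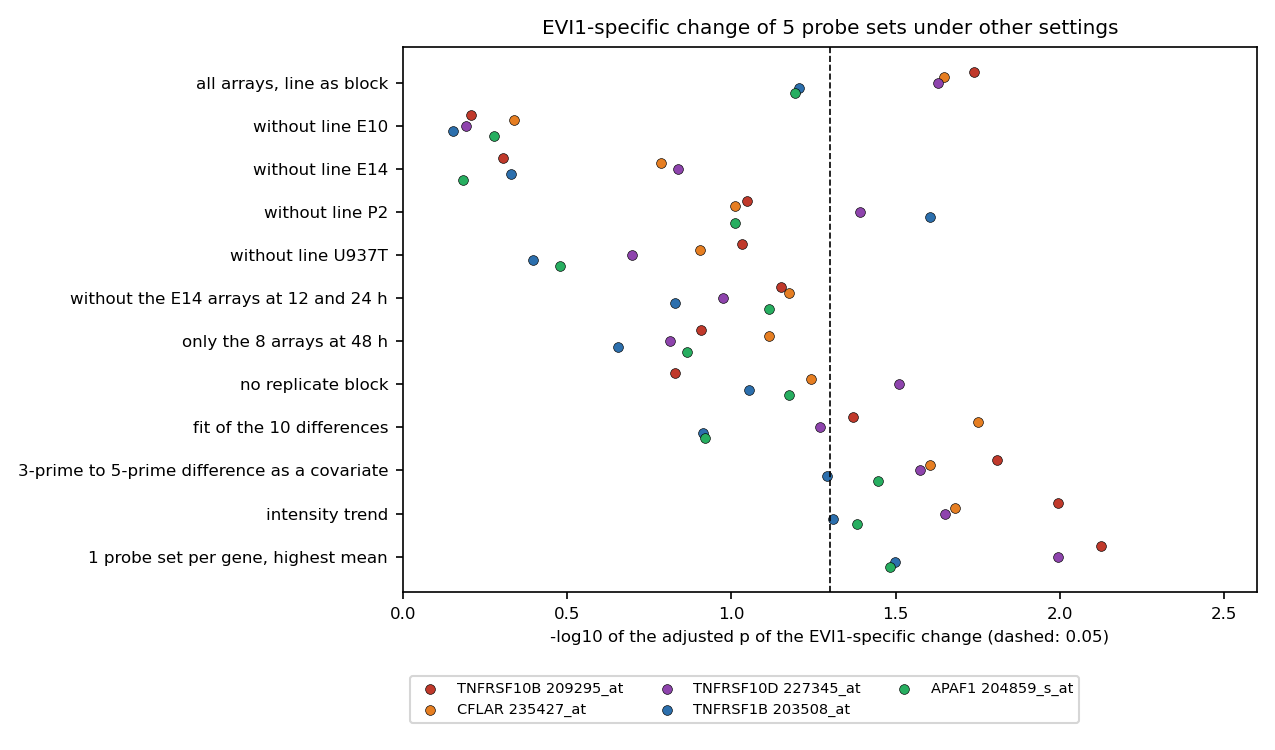
Adjusted p of the EVI1-specific change at 48 h of 5 probe sets as -log10 (x axis) for 12 settings of the limma fit (rows); points right of the dashed line are called. All 5 lie left of the line without E10, without E14 and without U937T, and CFLAR 235427_at has no point where only the probe set with the highest mean is kept.

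Other genes of the pathway, taken from 7 lists with the probe set of highest mean for each gene, also moved at 48 h, in both directions; the genes named here were chosen after their values were seen. Of all tested probe sets, 13.0% were called higher and 11.5% lower in the EVI1 clones at 48 h, against which each count of a short list is to be read. These shares cover every probe set of a gene and the lists only the one of highest mean, so they are not fully alike. In the EVI1 clones, 3 of 6 ligands were called higher, the TRAIL gene TNFSF10 by 2.33, LTB by 0.72 and TNF by 0.55, while TNFSF10 also rose in the control lines, by 1.57. Of 5 other receptors, TNFRSF12A rose by 0.91 and TNFRSF21, a receptor with a death domain, fell by 0.77. Of 10 adaptors and kinases, TRAF2 and MLKL rose by 1.30 and 0.69 and DAP3 fell by 0.50; FADD, the adaptor of CASP8, had -0.04 and was not called. Of 12 ubiquitin editing enzymes and inhibitors of apoptosis, 5 were called higher, CYLD by 1.27, BIRC2 by 0.71 and XIAP by 0.68 among them, and 0 lower.

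Further down the pathway, 4 of 7 other caspases were called higher and 0 lower in the EVI1 clones at 48 h (13.0% and 11.5% of all tested): CASP4 by 0.74, CASP10, the close relative of CASP8, by 0.66, CASP1 by 0.62 and CASP9, the partner of APAF1, by 0.57. Of 9 genes for cytochrome c, its release and the apoptosome, BAX rose by 0.47 and ENDOG, AIFM1, BID and HTRA2 fell by 1.08, 0.56, 0.54 and 0.41. CYCS, which encodes cytochrome c, had -0.30 and was not called (adjusted p = 0.053 by limma). Of 7 caspase substrates and nucleases, LMNA and ROCK1 rose by 0.71 and 0.51 and DFFB, DFFA and PARP1 fell by 1.01, 0.88 and 0.30. In the control lines at 48 h, 0 of 7 other caspases were called. Of the cytochrome c list, 1 of 9 was called lower there, and of the substrates and nucleases 2 of 7, against 2.61% of all tested. None of the 56 tested genes of these 7 lists was called in the EVI1-specific contrast (lowest adjusted p = 0.054 by limma, CYLD), against 2.95% of all tested probe sets called in either direction. Of the cell type markers, 3 of 10 monocytic and myeloid genes were called higher and 1 lower in the EVI1 clones at 48 h, with 1 and 0 of 7 T cell, 2 and 0 of 5 B cell and 0 and 1 of 4 erythroid genes. ELANE (-1.22) and CD3E (0.89) were called in the EVI1-specific contrast, and their part in the results was not tested.

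Over the 20 arrays, the genes whose level most resembled that of the members called in the EVI1-specific contrast were, by Pearson's r as a description over arrays that share lines, time points and tet withdrawal, CEL (0.96), BCL2L1 (0.94) and SSH1 (0.94) for TNFRSF10D 227345_at and USP3 (0.87), ZNF81 (0.87) and DGAT2 (0.87) for TNFRSF10B 209295_at. For CFLAR, by its probe set of highest mean, 211316_x_at, they were LINC02256 (0.97), KMT5B (0.95) and LMLN (0.95). That probe set was not itself called in this contrast, and the called 235427_at was not compared.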

How the data were processed

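Per the methods, the authors hybridised total RNA to Affymetrix HG-U133 Plus 2.0 arrays and processed them by Robust Multi-array Analysis (background correction, quantile normalization, median polish), and the deposited values are log2 intensities. Checked on the files, the array medians lay between 5.25 and 5.35 and no value was missing. The version of that software and the genome build were not given in the sources used here. Quantile normalization makes the arrays' distributions equal, so changes are relative to the other probe sets.

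Of 54675 probe sets, 41097 had 1 gene symbol, 1801 several and 11777 none. The filter of the methods, a mean log2 intensity of at least 3 for each EVI1 clone at each of the later time points (24 and 48 h) and for each control line, here averaged over cultures with and without tet, left 35610 probe sets of 17860 genes with 1 symbol. limma 3.58.1 in R 4.3.3 was fitted to 10 groups with the line as a block (8 residual and 4.73 prior degrees of freedom; the comparison of clones with control lines with tet had no block and 10), and p was adjusted by Benjamini and Hochberg. The number of arrays limits the precision. The line block comes from the labels, since arrays of 1 line come from the same cells; across probe sets the deviations of E10 minus E14 correlated with a median r of 0.11 over 28 pairs of groups (-0.22 to 0.64) and those of P2 minus U937T with -0.24.

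For each gene the values on every array are given for the probe set with the highest mean and for others called in the EVI1-specific contrast or differing from it in direction. The members and lists were chosen with earlier results of these data known. Alternatives were other filters, probe set choices, centring, priors, blocks, subsets of arrays and an RNA integrity covariate. Promoters were from a RefSeq table (GRCh38.p14), in which 6 of the 9 genes had a window used here.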

Additional observations from a re-analysis of the deposited data

Results flagged for a closer look

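For 6 results the test of the difference between 2 responses passed. The EVI1-specific change at 48 h, the response of E10 and E14 minus that of P2 and U937T, was 0.96 for CFLAR 235427_at, 0.69 for TNFRSF10B 209295_at and 0.97 for TNFRSF10D 227345_at. The change at 48 h minus that at 24 h in the EVI1 clones was 1.36 for CFLAR 235427_at, 0.86 for TNFRSF10B 209295_at and 1.31 for TNFRSF1B 203508_at.

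For 2 further results both EVI1 clones moved one way at 48 h and both control lines the other. The share of all tested probe sets that did so was not counted, so the number itself is not read as a result. TNFRSF10A 1552648_a_at was lower without tet in E10 and E14 and higher in P2 and U937T, with an EVI1-specific change of -0.33 that did not pass (adjusted p = 0.33 by limma). TNFRSF10D 210654_at was higher in E10 and E14 and lower in P2 and U937T, with an EVI1-specific change of 0.40 that did not pass (adjusted p = 0.38 by limma). Its changes in E14 (0.03) and U937T (-0.06) were small.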

How the results depend on the processing

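Each count of called probe sets is over the 34 tested. With 1 probe set per gene, the one with the highest mean or the largest spread, the counts were 3 and 2 at 24 h, 6 and 6 at 48 h and 2 and 1 in the control lines, where only 9 could be called. Asking for at least 2-fold left 0 at 24 h, 5 at 48 h, 0 in the control lines, 0 EVI1-specific and 1 for time with tet. Without the line as a replicate block 5 were called at 24 h and 1 EVI1-specific; with the block crossed between the control lines, 10 and 4, and no other count moved by over 1.5 times. The EVI1-specific count was 5 with an intensity trend and with a mean of at least 5 over all arrays, 0 on the 8 arrays at 48 h and 0 without the E14 arrays at 12 and 24 h, which also left 4 at 24 h, 2 in the control lines and 0 for 48 against 24 h. For time with tet the count was 5 with a mean of at least 5 and 0 when adjusted for the 3′ to 5′ difference. Leaving out 1 line gave 0 to 9 at 24 h, 9 to 19 at 48 h, 0 to 1 in the control lines, 0 to 2 EVI1-specific, 0 to 3 for 48 against 24 h and 0 to 3 for time with tet; the counts at 6 and 12 h and of clones against control lines with tet were 0 in every setting run. These fits have fewer samples or probe sets, and the cause was not tested further.

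The EVI1-specific change turned its sign for FAS 204781_s_at, to 0.03 without E14 and 0.049 without P2 (-0.11 to 0.049 leaving out each line), and for TNFRSF1A 207643_s_at, to 0.075 without E14 (-0.11 to 0.075); none was called. Of 741 values for 48 single results under other settings, 627 kept their direction and call, 102 lost the call, 9 gained it and 3 turned.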
